A study of Mus musculus with 9 samples.

Results

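The 35 genes described here code for proteins of DNA replication and mitosis, from the marker of cycling cells Mki67 through the replicative helicase (Mcm2 to Mcm7) to the motors of the dividing spindle. They were chosen by symbol as a panel of cell proliferation genes, and all 35 were found among the 45904 identifiers of the expression table through their Ensembl identifiers. The libraries were made from RNA of whole dorsal root ganglia that serve the sciatic nerve, taken from C57BL/6 mice. These ganglia hold the cell bodies of sensory neurons among satellite glia, Schwann cells, vessels and resident immune cells. The 3 groups were young mice (8 to 10 weeks old) after sham surgery, aged mice (20 to 22 months old) after sham surgery, and aged mice after sciatic nerve injury. Each group had 3 libraries, each library pooled ganglia of 2 mice, and all tissue was taken 24 h after surgery. No young injured group was used here, the type of nerve injury is not given in the sources used here, and no transgene, other allele or drug is named.

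In a dividing cell, the Mcm helicase is loaded onto DNA, unwinds it with the sliding clamp Pcna behind it on the new strands, and draws on deoxynucleotides made by enzymes such as Rrm2 and Tyms. Cyclins then switch on Cdk1, the Aurora and Polo-like kinases build the spindle, the checkpoint kinases hold the cell until chromosomes are attached, and the anaphase-promoting complex with Cdc20 and Ube2c lets it exit. Sensory neurons of the adult ganglion are postmitotic, while satellite glia, Schwann cells, macrophages and other immune cells can divide. In bulk tissue, fewer cells of a type and less RNA per cell cannot be told apart.

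Levels are given in FPKM, which counts the fragments of a gene relative to its length and to library depth. For 99.2% of the tested genes the FPKM came in whole steps, from which the reads behind them could be recovered, and each library held between 10155235 and 14896353 reads in the tested genes. The test took in 17601 genes whose level averaged 0.2 FPKM or more across all libraries, and 32 of the 35 proliferation genes were among them. A gene is called where its adjusted p is under 0.05. All 12 sensory neuron markers were above 0, with sums of 6153 to 7711 FPKM per library. Among the markers found in the expression table, none of the 11 cell type lists held one at 0 everywhere. Of 10 listed markers of red blood cell precursors, 9 were found and Ahsp was not. The pools differed in sex: the summed level of 4 Y-linked genes was 93.0% to 106% of its young mean in the young pools and 69.7% in aged sham replicate 1, but at most 0.0426% in the other 5 aged pools. The X-inactivation RNA Xist was at most 0.0200 FPKM in young pools, 1.75 in aged sham replicate 1 and 9.77 to 13.0 in the others. Age and sex therefore cannot be told apart in the comparisons of aged with young pools. Sex was also unbalanced between aged sham, with 1 pool that held Y-linked RNA, and aged injury, with none.

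Many genes of late cell cycle share promoter elements, a CCAAT box and the cell cycle genes homology region, TTTGAA, while many genes of S phase carry sites for E2F factors. RefSeq promoters (build GRCm38.p6, from 250 bases before to 50 after the start) were at hand for 30 of the 35 genes, 33 promoters in all, and not for Aurkb, Mcm4, Tpx2, Kif20a and Ccna2. Shown are those of 3 genes whose expression differed in the tests below, Prc1, Aurka and Cdc20, and of Kif23 and Ube2c, which had the smallest p-values in the age comparison. Capitals mark TTTGAA, also the CCAAT box and any E2F-type form, read on either strand. The E2F-type forms searched were TTGGCGC, its variant TTGCCGC, the related form TTCCCGC, and finally TTCGCGC. Each sequence is written along the strand of its gene.
Prc1, chr7:80294201-80294500, plus strand, the first of 2 starts: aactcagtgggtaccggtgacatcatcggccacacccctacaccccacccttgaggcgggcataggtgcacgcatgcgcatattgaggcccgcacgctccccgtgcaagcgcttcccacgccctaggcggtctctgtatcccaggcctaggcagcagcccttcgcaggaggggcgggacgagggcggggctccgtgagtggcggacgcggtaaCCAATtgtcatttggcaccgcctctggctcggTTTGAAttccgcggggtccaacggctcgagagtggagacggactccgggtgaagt
Aurka, chr2:172370521-172370820, minus strand: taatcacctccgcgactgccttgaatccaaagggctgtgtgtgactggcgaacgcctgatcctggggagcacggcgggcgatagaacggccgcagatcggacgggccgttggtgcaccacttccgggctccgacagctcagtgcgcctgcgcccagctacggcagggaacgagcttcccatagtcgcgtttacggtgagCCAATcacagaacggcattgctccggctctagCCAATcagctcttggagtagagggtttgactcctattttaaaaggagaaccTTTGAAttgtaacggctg
Cdc20, chr4:118437294-118437593, minus strand: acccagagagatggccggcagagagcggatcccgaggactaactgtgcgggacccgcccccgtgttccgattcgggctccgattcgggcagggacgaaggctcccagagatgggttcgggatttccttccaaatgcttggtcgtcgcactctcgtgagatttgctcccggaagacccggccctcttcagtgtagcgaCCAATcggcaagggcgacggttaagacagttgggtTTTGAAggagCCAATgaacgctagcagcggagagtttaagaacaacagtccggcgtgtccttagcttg
Kif23, chr9:61946750-61947049, minus strand: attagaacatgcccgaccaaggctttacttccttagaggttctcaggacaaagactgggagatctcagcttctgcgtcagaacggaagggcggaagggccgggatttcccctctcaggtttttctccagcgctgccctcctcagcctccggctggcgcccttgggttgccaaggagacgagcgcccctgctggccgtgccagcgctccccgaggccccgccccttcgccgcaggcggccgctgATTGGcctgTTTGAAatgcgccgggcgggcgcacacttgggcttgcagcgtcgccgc
Ube2c, chr2:164769679-164769978, plus strand: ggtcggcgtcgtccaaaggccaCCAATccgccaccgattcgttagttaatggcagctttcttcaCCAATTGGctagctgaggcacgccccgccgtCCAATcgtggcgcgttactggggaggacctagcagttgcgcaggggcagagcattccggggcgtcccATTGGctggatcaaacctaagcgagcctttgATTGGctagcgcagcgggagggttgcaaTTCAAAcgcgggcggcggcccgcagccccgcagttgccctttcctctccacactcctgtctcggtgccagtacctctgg

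All 5 hold a TTTGAA and a CCAAT and none of the E2F-type forms. In Prc1 the CCAAT begins at position -37 from the start and the TTTGAA at -5. Cdc20 has CCAAT at -53 and at -8 with the TTTGAA between them at -18. The Aurka promoter has CCAAT at -51 and -19, and its TTTGAA lies after the start, at 32. Ube2c holds 6 CCAAT matches, of which those at -186 and -183 overlap on opposite strands, and its TTTGAA is on the reverse strand at -29.

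Over the whole panel, TTTGAA occurred in 20 of 33 promoters (60.6%), against 17.9% of all 32851 promoters in the table and 16.0% of the 21263 of protein-coding genes. CCAAT occurred in 29 (87.9%), against 37.4% and 38.2%, and both motifs together in 19 (57.6%), against 6.95% and 6.38%. The E2F-type forms were found in 11 (33.3%), against 9.57% and 12.1%. They were spread unevenly over the roles: 5 of the 6 helicase promoters had an E2F-type form and 1 had TTTGAA, whereas of the 27 others 6 had an E2F-type form and 19 had TTTGAA. Mcm6 had 5 E2F-type matches, and Mcm3, Mcm5 and the first promoter of Mcm7 had 3 each. Birc5, Nusap1 and Tyms had none of the 3 motifs in this window. These matches are letters in a sequence and say nothing of whether a factor binds there.

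Most of the panel was expressed at low levels in the ganglia. The mean over the 9 libraries was at least 1 FPKM for 13 genes and below 1 for 22. Pcna, the sliding clamp, was highest at a mean of 5.69 FPKM, followed by the helicase subunits Mcm4 at 5.28 and Mcm6 at 4.40. Among the mitotic genes, only Aurka (2.53 FPKM) and Anln (2.09 FPKM), a scaffold of the contractile ring, passed 2. Mki67 had a mean of 0.867 FPKM, from 61 to 196 reads per library, and Top2a, the topoisomerase that untangles sister chromatids, 0.473 FPKM from 21 to 141 reads.

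The lowest member was Ccnb1, the cyclin B partner of Cdk1. It had 3, 0 and 3 reads in young sham, 2, 4 and 4 in aged sham, and 1, 6 and 0 after injury. In the libraries without a read, young sham replicate 2 and aged injury replicate 3, a floor of 3 reads allows up to 0.0572 and 0.0570 FPKM. Kif4, a chromosome-associated motor with 7 to 19 reads per library, and the kinetochore protein Cenpf, with 5 to 36, were likewise below the level tested. Intervals and floors on read counts cover counting error only.

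**Figure D1:**
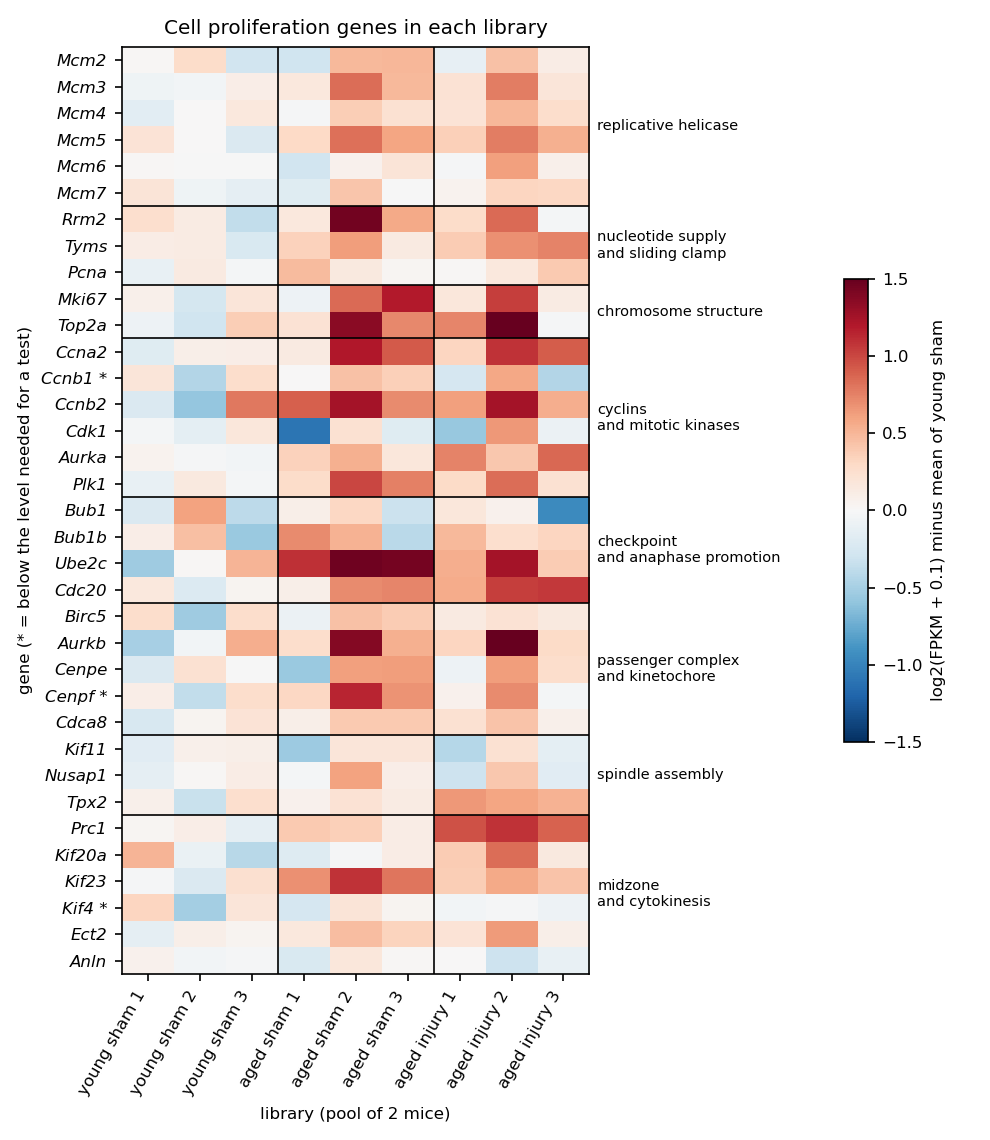
Level of the 35 proliferation genes (rows, grouped by role) in each of the 9 libraries (columns), as log2(FPKM + 0.1) minus the mean of young sham; red is higher, and colours stop at 1.5 in either direction. Aged sham replicate 2 and aged injury replicate 2 are the reddest columns, each the highest library for 12 genes, and the 3 genes marked with an asterisk were not tested.

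The panel did not vary evenly within the groups. Its share was 150, 150 and 152 reads per 1000000 recovered reads in young sham, 157, 215 and 187 in aged sham, and 174, 225 and 180 in aged injury. The 3 young libraries lay within each other's 95% intervals (143 to 160 over the 3, exact binomial), and aged sham replicate 1 (150 to 164) overlapped all of them. The other 5 aged libraries lay above, and the highest were the libraries numbered 2 of both aged groups, at 206 to 224 and 217 to 234. Aged sham replicate 2 was the highest of all 9 libraries for 12 of the 35 genes and aged injury replicate 2 for another 12, against 13.3% and 13.1% of all tested features. A young library was lowest for 26 genes and highest for 2. Of all tested features, young sham replicates 1, 2 and 3 were highest for 9.13%, 5.58% and 16.0%. Within aged sham, replicate 2 was highest for 26 genes and replicate 1 lowest for 28. Within aged injury, replicate 2 was highest for 27. Lowest ranks and ranks within groups were not counted over all features, so these counts have no background beside them.

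Markers of immune cells also differed between these libraries. The summed level of 9 T cell markers was 1.92, 2.13 and 1.85 FPKM in young sham, 4.27, 40.1 and 9.02 in aged sham, and 6.24, 52.8 and 13.6 in aged injury. It was thus highest in the libraries numbered 2 of both aged groups, as was the sum of 8 B and plasma cell markers, which was at most 29.9 FPKM in young sham, 271 in aged sham replicate 2 and 903 in aged injury replicate 2. The 10 macrophage markers summed to 91.0, 96.2 and 106 FPKM in young sham. Their sums were 155, 329 and 252 FPKM in aged sham, and 143, 261 and 180 in aged injury. These were also highest in the libraries numbered 2 of both aged groups, where Lyz2 alone had 226 and 164 FPKM. The 12 neutrophil and bone marrow markers followed another order, with 155 to 247 FPKM in young sham, 354 to 640 in aged sham and 194 to 334 in aged injury. The highest sum of the latter was in aged sham replicate 3. That library was the highest for 3 panel genes, Mki67 among them, and its panel share was 187 reads per 1000000. Myelinating Schwann cell markers summed to 2793 to 3223 FPKM in young sham, 1878 to 1999 in aged sham and 1642 to 1914 in aged injury, and 3 of 8 were called lower with age, 0 with injury and 4 against young sham. Satellite glia markers summed to 1725 to 1758 FPKM in young sham, 1583 to 1717 in aged sham and 1320 to 1467 in aged injury. These groups did not overlap. Endothelial markers summed to 30.8 to 36.3, 34.9 to 39.5 and 32.8 to 38.4 FPKM in the same order of groups, with overlap. Single markers of both lists differed in either direction. Of 10 satellite glia markers, 1 was called higher and 2 lower with age, 1 higher with injury, and 2 higher and 3 lower against young sham. Of 7 endothelial markers, 1 was called higher with age, 1 lower with injury and 1 higher against young sham. Of the 9 T cell markers, limma called 0 with age (5 at an unadjusted p under 0.05), 0 with injury (0 unadjusted) and 2 against young sham (8 unadjusted). Voom on the recovered reads called 0 of them in each comparison. In the same order, 26.3%, 19.8% and 29.4% of all tested genes passed unadjusted. Of the macrophage markers 5 of 10, and of the neutrophil and bone marrow markers 9 of 12, were called higher with age, and 3 of the latter were called lower with injury. With injury 1 macrophage marker was called higher. Against young sham, 6 macrophage, 2 B and plasma cell and 0 neutrophil and bone marrow markers were called higher, and 0 of these lists lower. Over all tested genes, 2.53% were called higher and 1.49% lower with age, and 2.45% and 1.65% with injury. Against young sham these shares were 8.20% and 4.89%. The part of any of these cells in the proliferation gene levels was not tested.

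**Figure D2:**
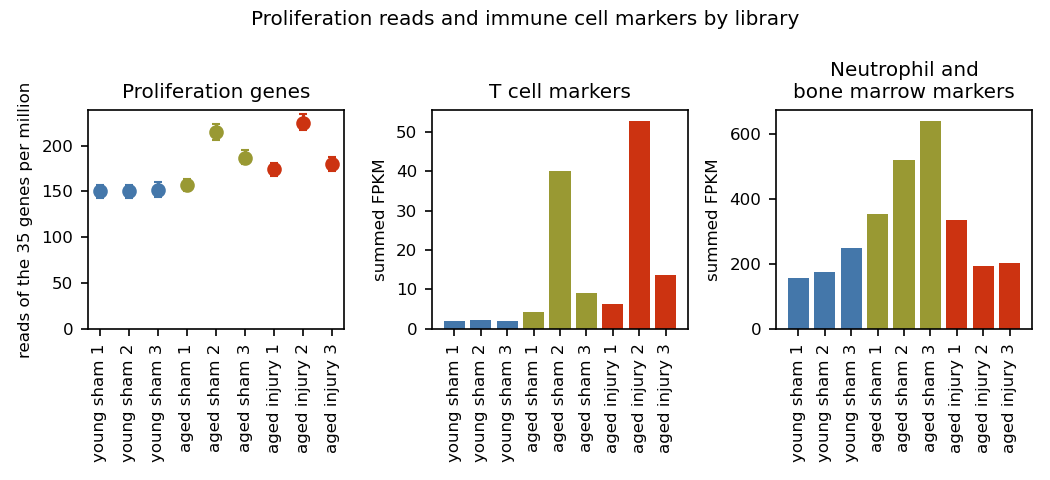
Left, reads of the 35 proliferation genes in each library, as reads per 1000000, with the exact binomial 95% interval; middle and right, summed FPKM of 9 T cell and of 12 neutrophil and bone marrow markers; blue is young sham, olive aged sham and red aged injury. The libraries numbered 2 of both aged groups are highest in the left and middle panels, at 215 and 225 reads per 1000000 and 40.1 and 52.8 FPKM.

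The first comparison set aged sham against young sham ganglia and asked how the panel differed with age without nerve injury. None of the 32 tested genes was called, against 4.02% of all tested genes, and the smallest adjusted p was 0.0531, for Kif23 (limma, Benjamini-Hochberg over all tested genes). At an unadjusted p under 0.05, 7 of the 32 passed (21.9%), against 26.3% of all tested genes, and voom on the recovered reads called 2, against 6.58% of all genes in that test. The log2 change was above 0 for 27 genes (84.4%) and for 56.7% of all tested features. Its median was 0.29 over the 32 genes and 0.05 over all features. The aged libraries all lay above the young libraries for 10 genes (31.2%), against 17.7% of all tested features, and all below for 0, against 11.5%. Without aged sham replicate 1, which had both Y-linked and Xist RNA, 31 of the 32 log2 changes were above 0, with a median of 0.40 and 0 calls. Without aged sham replicate 2 and aged injury replicate 2 together, an alternative chosen after seeing the data, 25 were above 0, with a median of 0.24 and 0 calls.

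Kif23, the motor of the centralspindlin complex that bundles microtubules at the cleavage site, had 0.421, 0.353 and 0.523 FPKM in young sham and 0.749, 1.02 and 0.817 in aged sham. These groups did not overlap, and the means were 0.432 ± 0.0860 and 0.862 ± 0.142 FPKM (SD, n = 3 each). The log2 change was 0.86 ± 0.209 (SE), a 1.81-fold difference just outside the threshold (limma adjusted p = 0.0531), and the adjusted p was 0.0646 to 0.143 with single libraries left out. On the recovered reads, 15 to 39 per library, limma's voom test called it (log2 change 0.98, adjusted p = 0.0374).

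Ube2c, the ubiquitin-conjugating enzyme of the anaphase-promoting complex, had the largest log2 change of the panel with age and was picked out after its values were seen. Its level was 0.117, 0.217 and 0.345 FPKM in young sham and 0.568, 0.758 and 0.747 in aged sham, so that the lowest aged library was above the highest young one. The means were 0.226 ± 0.114 and 0.691 ± 0.107 FPKM (SD, n = 3 each), and the log2 change was 1.33 ± 0.350 (SE; adjusted p = 0.0617 by limma). The recovered reads, 4 to 25 per library, gave a log2 change of 1.68 and a call by voom (adjusted p = 0.0395). The annotated exons of Ube2c share 592 bases (22.8%) with Tnnc2 on the opposite strand, which was at 0 in every library.

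Among the replication genes, all 6 helicase subunits were tested and none was called with age, and the median log2 change was 0.21. Mcm5 came closest, with 1.40, 1.2 and 1.02 FPKM in young sham and 1.5, 2.2 and 1.86 in aged sham (log2 change 0.58, limma adjusted p = 0.0905). Mcm3 had 1.14, 1.16 and 1.29 FPKM in young sham and 1.35, 2.22 and 1.71 in aged sham (log2 change 0.50, adjusted p = 0.168). Both genes had no overlap between the groups. The other 4 subunits overlapped, with log2 changes from -0.01 for Mcm6 to 0.23 for Mcm2. Of the enzymes of nucleotide supply, Rrm2, the small subunit of ribonucleotide reductase, had 0.903, 0.813 and 0.550 FPKM in young sham and 0.841, 2.2 and 1.15 in aged sham. Its aged values spanned more than the young ones, and the log2 change of 0.73 had an adjusted p of 0.223. Pcna differed little from group to group, with 4.74, 5.66 and 5.04 FPKM in young sham and 7.15, 5.71 and 5.24 in aged sham (log2 change 0.22, adjusted p = 0.337).

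Chromosome proteins and mitotic kinases were not called with age either. Mki67 had 0.647, 0.487 and 0.702 FPKM in young sham and 0.571, 1.17 and 1.51 in aged sham, so aged sham replicate 1 fell within the young range (log2 change 0.66, limma adjusted p = 0.274). Top2a showed a like spread, with 0.236, 0.187 and 0.358 FPKM in young sham and 0.310, 0.806 and 0.483 in aged sham (log2 change 0.76, adjusted p = 0.341). Polo-like kinase Plk1 had no overlap, with 0.379, 0.475 and 0.407 FPKM against 0.529, 0.936 and 0.776 (log2 change 0.68, adjusted p = 0.144). Cyclin A2, Ccna2, with 9 to 29 reads per library, had none either (log2 change 0.75, adjusted p = 0.205), but shares 510 exon bases (12.5%) with Exosc9. Exosc9, on the opposite strand, had a mean of 6.89 FPKM over the 9 libraries, and Ccna2 of 0.401. Ccnb2, cyclin B2, had 0.295, 0.209 and 0.698 FPKM in young sham and 0.756, 0.989 and 0.655 in aged sham (log2 change 0.95, adjusted p = 0.143). Cdk1 itself lay on the other side of 0, at 0.440, 0.397 and 0.520 FPKM in young sham and 0.158, 0.546 and 0.383 in aged sham, with overlap (log2 change -0.35, adjusted p = 0.622). The remaining genes without overlap were Aurka and Prc1, described below, Tyms and Ect2, which acts in cytokinesis, with log2 changes of 0.37 and 0.32.

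Injury was compared within the aged mice, aged injury against aged sham. Of the 32 genes, 1 was called, Prc1 (3.12%), against 4.11% of all tested genes, 2.45% higher and 1.65% lower. At an unadjusted p under 0.05, 3 of the 32 passed (9.38%), against 19.8% of all tested genes. The panel as a whole was centred on 0: 14 log2 changes were above 0 (43.8%) and 18 below, against 47.8% above 0 for all tested features, and the median was -0.02 against -0.01. The injured libraries all lay above the sham libraries for 3 genes (9.38%; background 11.7%) and all below for 1 (3.12%; background 13.7%). The direction of the median followed single libraries, from -0.19 without aged sham replicate 1 to 0.08 without aged sham replicate 2. Markers of injured neurons summed to 262 to 392 FPKM in aged sham and 555 to 724 after injury, and 7 of these 8 genes were called higher.

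Prc1 crosslinks antiparallel microtubules in the spindle midzone. Its level was 0.907, 0.883 and 0.727 FPKM in aged sham and 1.39, 1.53 and 1.31 in aged injury, on 55 to 185 reads per library over the series. Every injured library was above every sham library. The means were 0.839 ± 0.0976 and 1.41 ± 0.115 FPKM (SD, n = 3 each), and Prc1 rose 1.61-fold (log2 change 0.69 ± 0.157 SE, limma adjusted p = 0.0452). This call was not stable: it was lost with any 1 of the 9 libraries left out (adjusted p 0.0520 to 0.135, log2 change 0.60 to 0.74), and also with libraries set to equal medians (0.0520), with quantile normalization (0.0530), with a fit of both groups alone (0.0788) and with no filter (0.0841). With pseudocounts of 1 and 0.01 it stayed (adjusted p = 0.0352 and 0.0486), as it did on the recovered reads (log2 change 0.75, voom adjusted p = 0.00653), where voom called 5.58% of all genes. Prc1 shares 911 exon bases (11.1%) with Rccd1 on the opposite strand, and strand handling is not given in the sources used here. Rccd1 had 1.2, 1.21 and 1.33 FPKM in aged sham and 0.819, 1.21 and 0.927 after injury, a log2 change in the other direction (-0.33, adjusted p = 0.300).

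Also without overlap after injury were Tpx2, which targets Aurora A to the spindle, and Kif20a, a midzone motor. Tpx2 had 1.16, 1.30 and 1.21 FPKM in aged sham and 1.79, 1.72 and 1.63 in aged injury, a tight set of values on both sides (log2 change 0.45, limma adjusted p = 0.163). Kif20a had 0.430, 0.496 and 0.552 FPKM in aged sham and 0.685, 0.980 and 0.570 after injury (log2 change 0.49, adjusted p = 0.399). It shares 1271 exon bases (29.3%) with Cdc23 on the opposite strand. The mean over the 9 libraries was 3.46 FPKM for Cdc23 and 0.588 for Kif20a. Kif23 lay the other way, at 0.579, 0.682 and 0.609 FPKM after injury against 0.749, 1.02 and 0.817 in aged sham (log2 change -0.40, adjusted p = 0.330). Thus of the 3 midzone motors and crosslinkers without overlap, Prc1 and Kif20a had higher and Kif23 lower values in the injured pools.

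The markers used most often to count cycling cells showed no call after injury. Mki67 was 0.694, 1.35 and 0.668 FPKM in aged injury, within the aged sham range of 0.571 to 1.51 (log2 change -0.21, limma adjusted p = 0.795). Top2a was 0.488, 1.14 and 0.249 FPKM, a wider span than that of aged sham, and its log2 change was 0.08 ± 0.482 (SE, adjusted p = 0.958). Pcna was 5.18, 5.75 and 6.75 FPKM (log2 change -0.03, adjusted p = 0.937). The helicase subunits had log2 changes of -0.11 to 0.23, with the Mcm2 value at -0.09. In Cdk1, the injured libraries held 0.270, 0.762 and 0.419 FPKM on 15, 36 and 18 reads (log2 change 0.35, adjusted p = 0.698). Birc5 (survivin), the subunit that helps place the chromosomal passenger complex, was 1.0, 1.07 and 1.01 FPKM after injury and 0.845, 1.26 and 1.21 in aged sham (log2 change -0.08, adjusted p = 0.904). The 4 tested genes of that complex and of the kinetochore had log2 changes of -0.08 to 0.04. With 3 pools a group, standard errors of 0.126 to 0.512 on the log2 scale set what could be seen.

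Aged injury was also compared with young sham, which joins age and injury and shares its libraries with both comparisons above. Here 4 of the 32 genes were called, all higher (12.5%): Prc1, Aurka, Tpx2 and Cdc20. In this comparison 13.1% of all tested genes were called, 8.20% higher and 4.89% lower. At an unadjusted p under 0.05, 6 of the 32 passed (18.8%), against 29.4% of all tested genes. The log2 change was above 0 for 27 genes (84.4%; background 53.2%), with a median of 0.38 against 0.02 for all features. The injured libraries all lay above the young ones for 11 genes (34.4%; background 19.9%) and all below for 0 (background 15.5%). Without aged sham replicate 2 and aged injury replicate 2, Prc1 and Aurka were called, 26 log2 changes were above 0 and the median was 0.22. Leaving out aged injury replicate 2 alone gave the same median.

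Prc1 had 0.682, 0.724 and 0.599 FPKM in young sham, so that its groups lay in the order young sham, aged sham, aged injury with no overlap between neighbours. The 2 sham groups nearly met, as the lowest aged sham value was 0.727 FPKM. It rose 1.97-fold against young sham (log2 change 0.98 ± 0.157 SE, limma adjusted p = 0.00637) and kept the call with each of the 9 libraries left out (adjusted p 0.00886 to 0.0288). The age difference by itself was not called (log2 change 0.29, adjusted p = 0.275). Prc1 was the only one of the 4 genes whose call held in every library left out.

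Aurka codes for Aurora A, the kinase of centrosomes and spindle poles. Its level was 2.01, 1.91 and 1.88 FPKM in young sham, 2.49, 2.83 and 2.18 in aged sham, and 3.30, 2.59 and 3.58 in aged injury. Both aged groups lay wholly above the young libraries but overlapped each other. Aurka rose 1.59-fold from young sham to aged injury (means 1.93 ± 0.0688 and 3.16 ± 0.508 FPKM, SD, n = 3 each; log2 change 0.67 ± 0.139 SE, limma adjusted p = 0.0162). The call held with 5 of the 9 libraries left out. It was lost without young sham replicate 1 (0.0536) or 3 (0.0643) and without aged injury replicate 1 (0.0598) or 3 (0.0704). Neither step alone was called, with a log2 change of 0.35 for age (adjusted p = 0.153) and 0.32 for injury (adjusted p = 0.241).

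Tpx2, the activator of Aurora A, had 1.17, 0.860 and 1.34 FPKM in young sham, within which range the 3 aged sham libraries lay. It rose 1.5-fold from young sham to aged injury (means 1.12 ± 0.244 and 1.71 ± 0.0795 FPKM, SD, n = 3 each; log2 change 0.59 ± 0.161 SE, limma adjusted p = 0.0442). With single libraries left out the call held only without young sham replicate 3, with an adjusted p of up to 0.123 in the other 8. It was also lost with no filter (0.0829), a mean of at least 1 FPKM (0.0541), equal medians (0.0619), quantile normalization (0.109) and the compared groups alone (0.0844). Voom called it (adjusted p = 0.0204), in a test that called 14.9% of all genes.

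Cdc20, the activator of the anaphase-promoting complex, had 0.528, 0.388 and 0.480 FPKM in young sham, 0.499, 0.816 and 0.831 in aged sham, and 0.729, 1.05 and 1.07 in aged injury. Aged sham replicate 1 was again at the young level. Cdc20 rose 1.85-fold from young sham to aged injury (means 0.465 ± 0.0712 and 0.952 ± 0.193 FPKM, SD, n = 3 each; log2 change 0.89 ± 0.246 SE, limma adjusted p = 0.0451). These values rest on 9 to 27 reads per library. The exons of Cdc20 share 53 bases (2.84%) with Elovl1 on the opposite strand, which averaged 19.9 FPKM. Strand handling is not given, so reads of Elovl1 in these bases cannot be set apart. The call held with only 1 of the 9 libraries left out, aged sham replicate 1, and not on the recovered reads (voom adjusted p = 0.0640). It was also lost with no filter (0.0757) and quantile normalization (0.0703).

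**Figure D3:**
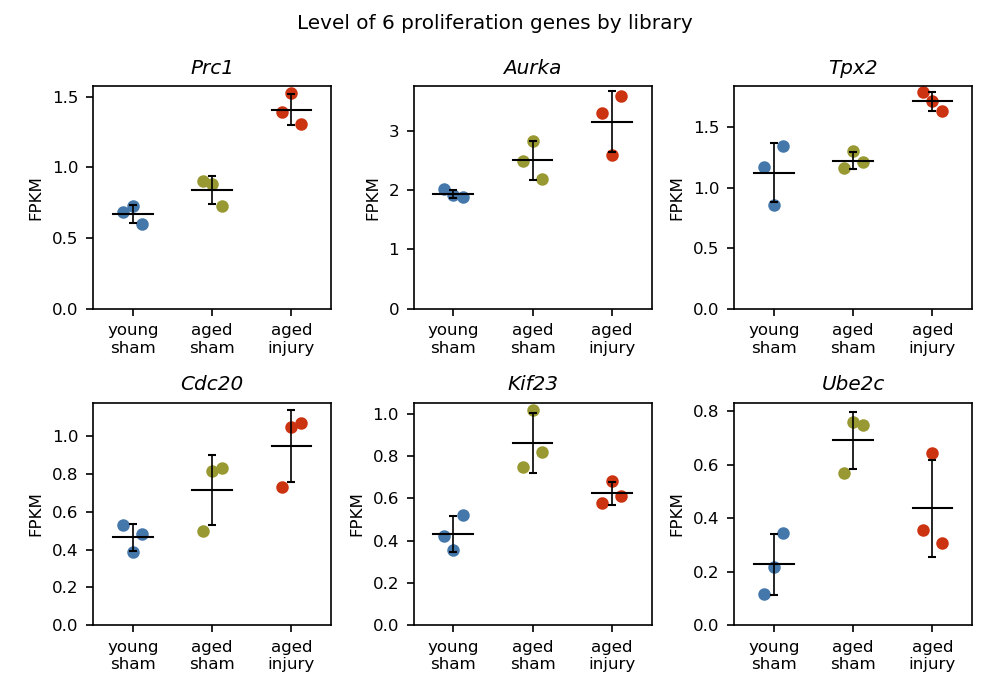
FPKM of 6 proliferation genes in each library (points), with the mean (line) and SD (bars) of 3 libraries per group. For Prc1 every injured library is at 1.31 FPKM or more, apart from both sham groups, which nearly meet (0.724 in young and 0.727 in aged sham). Kif23 and Ube2c have their highest mean in aged sham, at 0.862 and 0.691 FPKM.

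The 28 other tested genes were not called against young sham. The nearest were Mcm5, with 1.56, 2.11 and 1.78 FPKM after injury (log2 change 0.55, limma adjusted p = 0.0749), and Mcm4, with 4.16, 4.64 and 5.17 FPKM in young sham and 5.38, 6.57 and 5.58 in aged injury (log2 change 0.32, adjusted p = 0.127). Both had no overlap with young sham. All 6 helicase subunits had a log2 change above 0, from 0.14 for Mcm2 to 0.55, with a median of 0.28. Tyms, thymidylate synthase, had no overlap either (log2 change 0.60, adjusted p = 0.180), and neither did Ccna2, Kif23, Mcm3 and Plk1. At the other end were Bub1, the spindle checkpoint kinase, with a log2 change of -0.24 (adjusted p = 0.740), Anln with -0.14 (adjusted p = 0.519) and the spindle motor Kif11 with -0.12 (adjusted p = 0.788).

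Anln and Kif11 had log2 changes between -0.14 and -0.02 in all 3 comparisons, and none passed the test. Anln had 2.25, 2.09 and 2.13 FPKM in young sham, 1.82, 2.43 and 2.19 in aged sham, and 2.16, 1.72 and 1.98 in aged injury, with overlap throughout and an SE of 0.131 on its log2 changes. Kif11 had 0.866, 1.05 and 1.06 FPKM in young sham, 0.645, 1.13 and 1.13 in aged sham, and 0.707, 1.17 and 0.882 in aged injury. In both, the 3 groups covered much the same range. Bub1b, the BubR1 checkpoint protein, had 1.15, 1.49 and 0.692 FPKM in young sham, 1.80, 1.57 and 0.781 in aged sham, and 1.53, 1.28 and 1.35 in aged injury. Replicates 3 of young sham and aged sham were both low, and its log2 changes of 0.28, 0.08 and 0.35 were not called. The Aurora B kinase Aurkb had 2 to 21 reads per library, and its values of 0.456 and 0.520 FPKM in aged sham and aged injury replicates 2 were the only ones above 0.213.

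The rest of the panel overlapped between all groups or lay near 0. Mcm2 had 2.09, 2.53 and 1.67 FPKM in young sham, 1.66, 2.93 and 2.97 in aged sham, and 1.89, 2.84 and 2.24 in aged injury. Mcm6 had 4.16, 4.10 and 4.11 FPKM in young sham, 3.37, 4.33 and 4.74 in aged sham, and 4.08, 6.36 and 4.37 in aged injury. In both subunits aged sham replicate 1 was the lowest of all 9 libraries. Mcm7 ranged from 1.51 to 2.33 FPKM, with a log2 change against young sham of 0.23 (limma adjusted p = 0.421). Borealin, Cdca8, of the chromosomal passenger complex, had 0.264, 0.342 and 0.398 FPKM in young sham, 0.360, 0.467 and 0.465 in aged sham, and 0.407, 0.479 and 0.356 in aged injury. The kinetochore motor Cenpe had 0.149 to 0.467 FPKM, with log2 changes of 0.23, 0.04 and 0.27. Nusap1, which binds spindle microtubules, had 0.580 to 1.19 FPKM, with log2 changes of 0.23, -0.25 and -0.02. None of these 6 genes was called in any comparison.

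**Figure D4:**
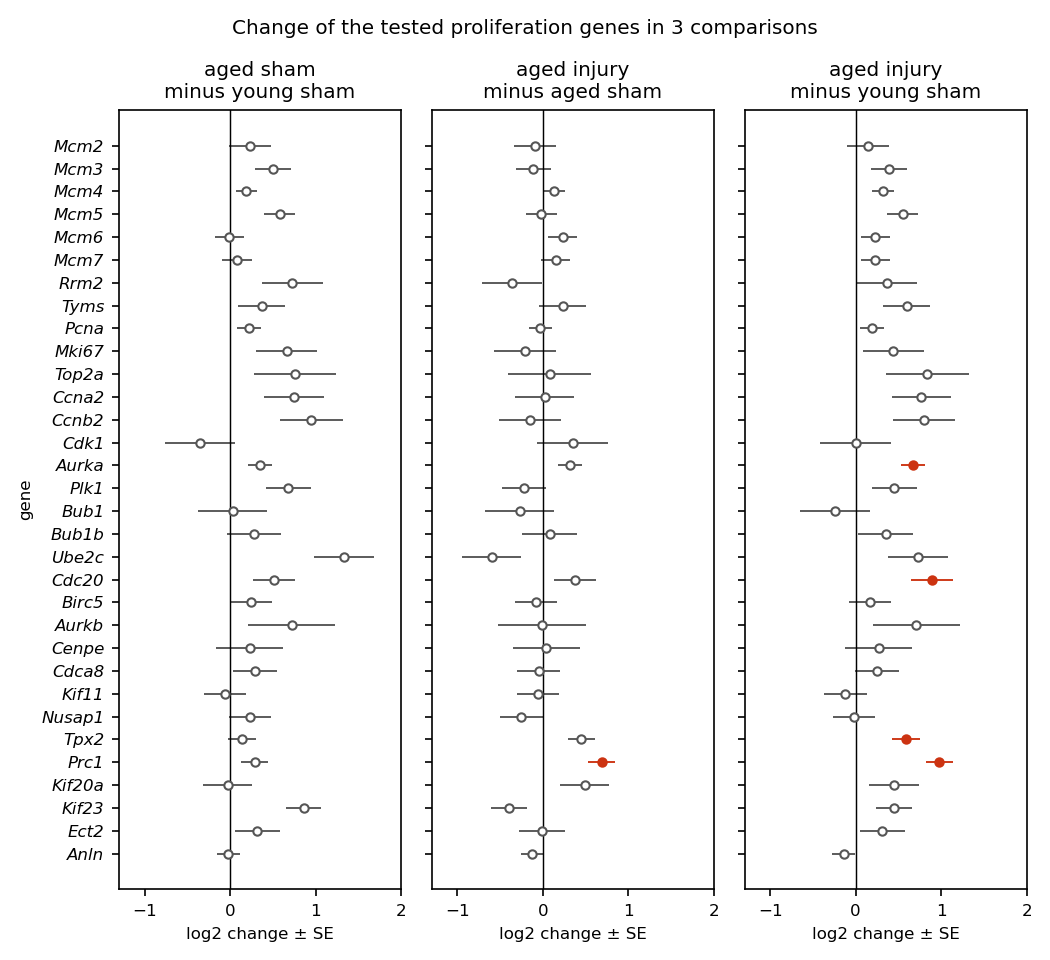
Log2 change (dot) ± SE (line) of the 32 tested proliferation genes in the 3 comparisons, on the log2(FPKM + 0.1) scale; filled red dots are genes called at an adjusted p under 0.05. In the left and right panels 27 of 32 dots lie above 0, in the middle panel 14, and the 5 filled dots are Prc1 after injury and Prc1, Aurka, Tpx2 and Cdc20 against young sham.

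By role, the median log2 change with age ran from 0.14 for the 3 spindle assembly genes to 0.71 for the 2 chromosome structure genes, with 0.68 for the 5 tested cyclins and mitotic kinases and 0.39 for the 4 genes of checkpoint and anaphase promotion. After injury, the medians of all 8 roles lay between -0.10 and 0.05. Against young sham they ran from -0.02 for spindle assembly to 0.67 for cyclins and mitotic kinases. The corresponding medians over all tested features were 0.05, -0.01 and 0.02. No difference between roles was tested.

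Other genes of the cell cycle were read for comparison in lists made by function. Of 31 further DNA replication genes, 27 were tested: with age 1 was called higher, with injury 0, and against young sham 1 higher and 1 lower, with median log2 changes of 0.11, -0.11 and 0.06. At an unadjusted p under 0.05, 5, 2 and 3 passed, and voom called 2 (Lig1 and Pole), 0 and 2 (Gmnn and Lig1). Of 52 further mitosis genes, 41 were tested: 0 were called with age or injury and 2 were called higher against young sham, with medians of 0.13, -0.01 and 0.14. At an unadjusted p under 0.05, 2, 1 and 7 passed, and voom called 0, 1 (Kif22) and 3 (Ccnf, Foxm1 and Kif22). Of 19 regulators of entry into S phase, 17 were tested: 1 was called higher with age, 1 with injury and 2 against young sham, with medians of 0.06, 0.03 and 0.05. At an unadjusted p under 0.05, 3, 2 and 3 passed, and voom called 2 (Ccnd1 and Ccnd3), 2 (E2f1 and Myc) and 3 (Ccnd1, Ccnd3 and Myc). Over all tested genes limma called 4.02%, 4.11% and 13.1% and voom 6.58%, 5.58% and 14.9% in the 3 comparisons, and 26.3%, 19.8% and 29.4% passed unadjusted.

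Lig1, the ligase that joins Okazaki fragments, had 3.18, 3.01 and 2.71 FPKM in young sham and 4.04, 4.22 and 4.90 in aged sham, with no overlap. It rose 1.46-fold with age (log2 change 0.55, limma adjusted p = 0.0341), a call that held with 2 of 9 libraries left out and was lost with no filter (0.0528) or the compared groups alone (0.10), and was also called in aged injury against young sham (log2 change 0.44, adjusted p = 0.0244, held in 4 of 9, lost at 0.0569 with quantile normalization). Gmnn, geminin, the inhibitor of helicase loading, fell against young sham, from a mean of 5.57 ± 0.689 to 3.91 ± 0.314 FPKM (SD, n = 3 each; adjusted p = 0.0264). Cyclin F (Ccnf) rose 1.88-fold in the same comparison (adjusted p = 0.0377). The chromosome arm motor Kif22 rose 2.38-fold (adjusted p = 0.0286), to 6.24, 5.13 and 5.44 FPKM after injury from 1.58, 3.0 and 2.52 in young sham. With single libraries left out, these last 3 calls held in 4, 3 and 4 of 9 cases. That of Ccnf was also lost with no filter (0.0644) and quantile normalization (0.0678).

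Among the regulators of entry into S phase, Myc, a transcription factor of growth, was the one limma called with injury. Its level was 5.30, 5.36 and 5.34 FPKM in young sham, 5.60, 5.58 and 5.66 in aged sham, and 8.95, 7.54 and 8.67 in aged injury. The injured libraries lay well above both sham groups, whose spread was small. Myc rose 1.48-fold with injury (log2 change 0.57 ± 0.0751 SE, limma adjusted p = 0.00691) and 1.56-fold against young sham (adjusted p = 0.00179), and both calls held with each of the 9 libraries left out. Ccnd1, cyclin D1, rose 1.36-fold with age, from 9.30 ± 1.09 to 12.6 ± 0.826 FPKM (SD, n = 3 each; adjusted p = 0.0429, held in 1 of 9 left out, lost at 0.0604 with no filter and 0.105 with the compared groups alone). Ccnd3, cyclin D3, rose 1.49-fold against young sham, from 1.36 ± 0.130 to 2.07 ± 0.103 FPKM (adjusted p = 0.0368, held in 2 of 9, lost at 0.0655 with no filter and 0.0651 with quantile normalization).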

How the data were processed

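The 9 libraries from whole sciatic dorsal root ganglia, 3 per group, were made with the TruSeq mRNA kit from RNA with an integrity number above 7.5, per the labels' protocols. The authors deposited FPKM per gene. Per the submitters' processing notes, the build was mm10 and the tools included HTSeq 0.6.0, TopHat2 2.0.12 with Bowtie2 2.2.3, FastQC 0.10.1, SAMtools 0.1.19, and in R 3.1.1 limma 3.22.7 and edgeR 3.8.6. Their order, the annotation release and strand handling are not stated in the sources used here, so reads in exons shared by genes on opposite strands cannot be assigned.

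Symbols came from GENCODE M21 on the same build. Of the 17601 tested identifiers, 17454 (99.2%) gave FPKM that were whole multiples of 1 read, within 0.001. The reads were fixed by 1522 of 2279 single-exon genes that shared 1 constant. No 2 libraries of a group agreed within sampling noise (chi-square per degree of freedom 3.65 to 8.76). Genes averaging 0.2 FPKM or more were tested with limma 3.58.1 (R 4.3.3) on log2(FPKM + 0.1), with a variance trend, all 9 libraries in 1 fit, two-sided, Benjamini-Hochberg adjusted over all tested genes and called under 0.05. Changes of genes near 0 FPKM come out too small on this scale. A p-value here reflects variation among pools of mice only. The fit was checked on simulated data with changes planted only in genes averaging at least 1 FPKM. That check does not cover the 22 members below this level.

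Named with values were genes called, genes with non-overlapping groups and a mean of at least 0.5 FPKM, the 2 highest of each role, and Mki67, Top2a, Cdk1, Ccnb1, Mcm2 and Pcna. Ube2c, Aurkb, Ccna2, Tyms, Ect2 and Bub1 were added after their values were seen. Members and lists were chosen with earlier results of these data known. Alternatives were pseudocounts of 1 and 0.01, no filter, a mean of at least 1 FPKM, equal medians, quantile normalization, the compared groups alone, a replicate block and each library left out. After seeing the data, limma voom on recovered reads and leaving out replicates 2 of both aged groups were added.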

Additional observations from a re-analysis of the deposited data

How the results depend on the processing

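With age, 0 proliferation genes were called under each alternative except voom on recovered reads, which called 2, Kif23 and Ube2c. With injury, 1 was called with both other pseudocounts and with voom, and 0 with no filter, a mean of at least 1 FPKM (which leaves Prc1 untested), equal medians, quantile normalization, the 2 groups alone, the replicate block, each single library left out and both replicates 2 left out. Against young sham, 4 became 2 with no filter, quantile normalization, the replicate block and both replicates 2 left out, 1 at a mean of at least 1 FPKM, and 1 to 3 with single libraries left out. The median log2 change of the panel stayed above 0 in both comparisons with young sham (0.15 to 0.40 for age, 0.19 to 0.48 for aged injury).

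Over all genes, the 707 calls with age became 239 with no filter, 31 with the 2 groups alone, 101 with the replicate block, 1106 with voom, 28 without both replicates 2, and 23 to 1536 with single libraries left out. The 723 with injury became 302 with the 2 groups alone, 273 with the block, 43 without both replicates 2, and 151 to 740 with single libraries left out. The 2304 against young sham became 1024 without both replicates 2 and 869 to 2365 with single libraries left out. Leaving out a library also changes the shared spread, so libraries outside a comparison moved its count. Scaling moved the split of higher to lower calls, from 445 and 262 with age to 281 and 536 (equal medians) or 388 and 509 (quantile), from 432 and 291 with injury to 287 and 294 (equal medians), and from 1444 and 860 against young sham to 1029 and 1670 or 1168 and 1241. The causes were not tested.

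Replicate numbers did not pair young with aged libraries. Same-numbered libraries correlated in their deviations at -0.0667 to -0.0288 between young and aged sham. Between young sham and aged injury the values were -0.0464 to -0.0195. Between aged sham and aged injury they were 0.0625 to 0.27, and each library correlated best with its own number. The main fit took no account of a pairing of these aged groups, and no fit blocked them alone. The block ended 10 calls of named genes, of Prc1 with injury (adjusted p = 0.0862), of Lig1 (0.0739) and Ccnd1 (0.0886) with age, and of Tpx2 (0.0818), Cdc20 (0.0676), Lig1 (0.0539), Gmnn (0.0605), Ccnf (0.0699), Kif22 (0.0570) and Ccnd3 (0.0693) against young sham. For single genes, counted over the members and the list genes that limma called, 113 results lost a call, 2 gained one and 0 reversed. A further 45 moved in log2 change and 1777 stayed the same. List genes called by voom alone are not in this count.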
